A study of Drosophila melanogaster with 8 samples.

Results

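The nuclear-encoded subunits of respiratory complexes II, III and IV and of the ATP synthase (complex V) were followed in RNA that the J2 antibody recovered from fractions of Drosophila larvae. The members are the genes of the deposited table whose FlyBase symbol starts with Sdh and then A, B, C or D, with UQCR, with COX and then a digit, or with ATPsyn, together with blw, Cyt-c1 and RFeSP. Genes of the mitochondrial genome were left out, and Cyt-c-p, which the same rule names, was not analysed here. The rule was met by 50 of the 13970 genes, with 7 in complex II, 11 in complex III, 16 in complex IV and 16 in complex V. Of the 50, 18 carry an L for "like" at the end of the symbol (with a digit after it in COX6AL2 and COX7AL2) and are called like paralogs below, and 32 do not.

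Control larvae had the genotype ";;" and knockout larvae the genotype ";;dmpnpase-/dmpnpase-", both in the wDah background and both taken 4 days after egg laying. The knockout (dmpnpaseKO) is a CRISPR/Cas9 frame shift in the gene for PNPase, the exoribonuclease of the mitochondrial degradosome, and homozygous animals die as larvae. Cytosolic and mitochondrial fractions of each genotype gave 2 J2 libraries each, 8 in all, from whole larvae whose number per library was not given in the sources used here. The labels do not say that replicates came from separate larvae, so every p-value below measures the spread between these libraries, which may be technical.

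Complex II oxidises succinate and passes the electrons to ubiquinone, complex III moves them to cytochrome c, complex IV reduces oxygen, and complex V makes ATP from the proton gradient that complexes III and IV help to build. The members are transcribed in the nucleus and translated on cytosolic ribosomes, some of them at the surface of mitochondria, and their proteins are imported. Complexes III, IV and V also hold subunits encoded by the mitochondrial genome, whereas complex II is wholly nuclear-encoded. J2 binds double-stranded RNA irrespective of sequence, and the mitochondrial genome, transcribed on both strands, is a known source of it.

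Values are TPM, a share of the library corrected for transcript length. The depth behind them is unknown, and no library without immunoprecipitation was used, so amount in the fraction and recovery by J2 are measured together. Copies of nuclear rRNA genes filled between 42.7% and 96.6% of each library, and all other nuclear-encoded genes together between 0.0446% and 1.18%. The knocked-out gene itself was listed at 0 TPM in 6 libraries and at 0.0197 and 0.0415 TPM in replicate 1 of control and knockout mitochondria, too low to check the labels. The second cytosolic library of the knockout stands apart, with 61 genes above 0 TPM against 984 to 11051 in the other libraries. All 50 members are listed at 0 there, which is not read as absence of their RNA. Counts of called members that involve the knockout cytosol are given with and without this library. Most single-gene changes that involve the knockout cytosol are given only with it, so the listed 0 enters them. Differences were tested with limma on log2(scaled TPM + 1), after each library was scaled on 8 rRNA pseudogenes, with the p-values adjusted by the Benjamini-Hochberg method over the 475 genes whose mean reached 1 TPM. This scale understates the change of low genes.

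Complex II to V mRNAs were higher in knockout mitochondria than in control mitochondria, as were most of the nuclear-encoded genes abundant enough to be tested. The summed TPM of the 50 members was 22.3 and 10.5 in control mitochondria (16.4 ± 8.34, SD, n = 2) and 290.0 and 139 in knockout mitochondria (214 ± 107, SD, n = 2). Both knockout libraries lay above both controls, at a ratio of the means of 13.1. Over all nuclear-encoded genes outside the rRNA pseudogenes the same ratio was 8.53. In bulk fractions, fewer cells of a type and less of an RNA per cell cannot be told apart.

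As a share of the nuclear-encoded TPM, which depends on no scaling factor, the members took 1.69% and 1.39% in control mitochondria and 2.45% and 2.37% in knockout mitochondria. The groups do not overlap, and the share was highest, at 2.53%, in the first cytosolic library of the knockout. It was 0.134% and 0.702% in the control cytosol. Set against the summed TPM of cytosolic ribosomal protein genes, the order turned, since the members stood at 18.1% and 13.7% of that sum in control mitochondria and at 9.87% and 9.50% in knockout mitochondria. Set against the 40 nuclear-encoded complex I genes, whose symbols start with ND-, the members summed to 3.55 and 3.61 times their TPM in control mitochondria and 3.28 and 3.70 times in knockout mitochondria. Within these libraries the members thus gained share against all nuclear-encoded RNA, lost it against ribosomal protein RNA and overlapped between genotypes against complex I.

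**Figure D1:**
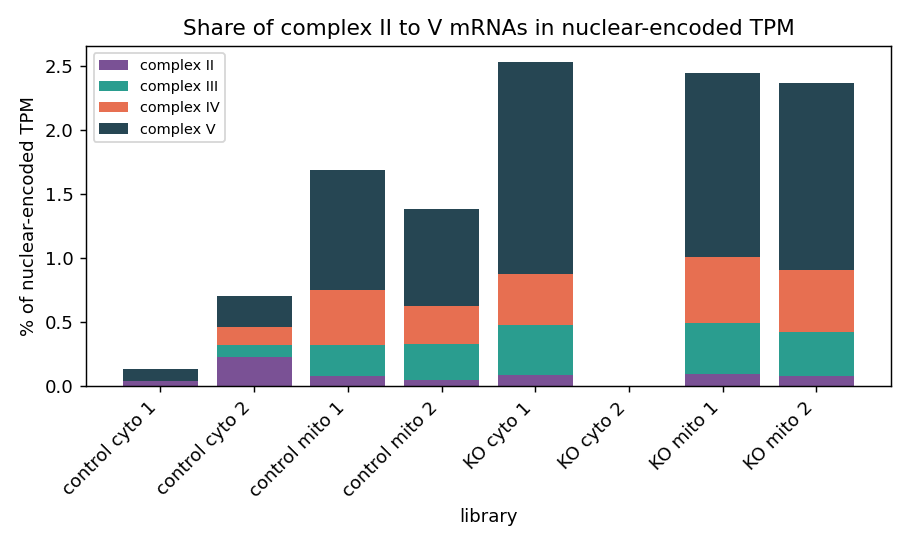
Bars give the summed TPM of the members of each complex as a percentage of the nuclear-encoded TPM outside rRNA pseudogenes, for each of the 8 libraries (KO, dmpnpaseKO; cyto, cytosol; mito, mitochondria). Knockout mitochondria stand at 2.45% and 2.37%, above the 1.69% and 1.39% of control mitochondria, and the second knockout cytosol library is empty because all members are listed at 0 in it.

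Of the 50 members, 26 had a mean of at least 1 TPM and were tested, 1 in complex II, 6 in complex III, 8 in complex IV and 11 in complex V. Without the knockout mitochondria only ATPsynC, blw and ATPsynbeta would have reached that mean, so the others passed the minimum through the group in which they are high, and their count is a description. In the mitochondrial fraction all 26 rose in the knockout, where 78.7% of the 475 genes tested were called higher. The log2 fold changes of the 26 had a median of 2.17 and ran from 1.61 for UQCR-Q to 3.31 for ATPsynC, with adjusted p between 0.000983 and 0.0189 (limma). Over the 443 nuclear-encoded genes the median was 2.25. Both knockout libraries lay above both controls for each of the 26 members tested, an order held by 91.4% of the 475 genes. The 6 members without the L that were not tested had this order too. The share of all 13970 genes with it was not counted.

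The call depends on how the libraries are scaled. With no scaling all 26 members passed (median 2.17, adjusted p between 0.000415 and 0.0117, limma). With median-of-ratios scaling 0 of the 26 members passed the threshold (smallest adjusted p = 0.146, limma), and with the nuclear-encoded TPM of each library set equal 0 passed (0.415). Equal sums take their whole reference from nuclear-encoded genes. Median-of-ratios scaling needs a signal in all 8 libraries, so its reference lies within the 61 genes detected in the second knockout cytosol library. Genes of the mitochondrial genome were left out of this reference. How many of the 61 it used, and how many of those were rRNA pseudogenes, was not counted. The median of the nuclear-encoded genes moved from 2.25 to 1.03 with median-of-ratios and to 0.44 with equal sums. Relative to the median of the nuclear-encoded genes, the median of the members was −0.08 in the main scaling, 0.05 with median-of-ratios and 0.12 with equal nuclear-encoded sums.

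**Figure D2:**
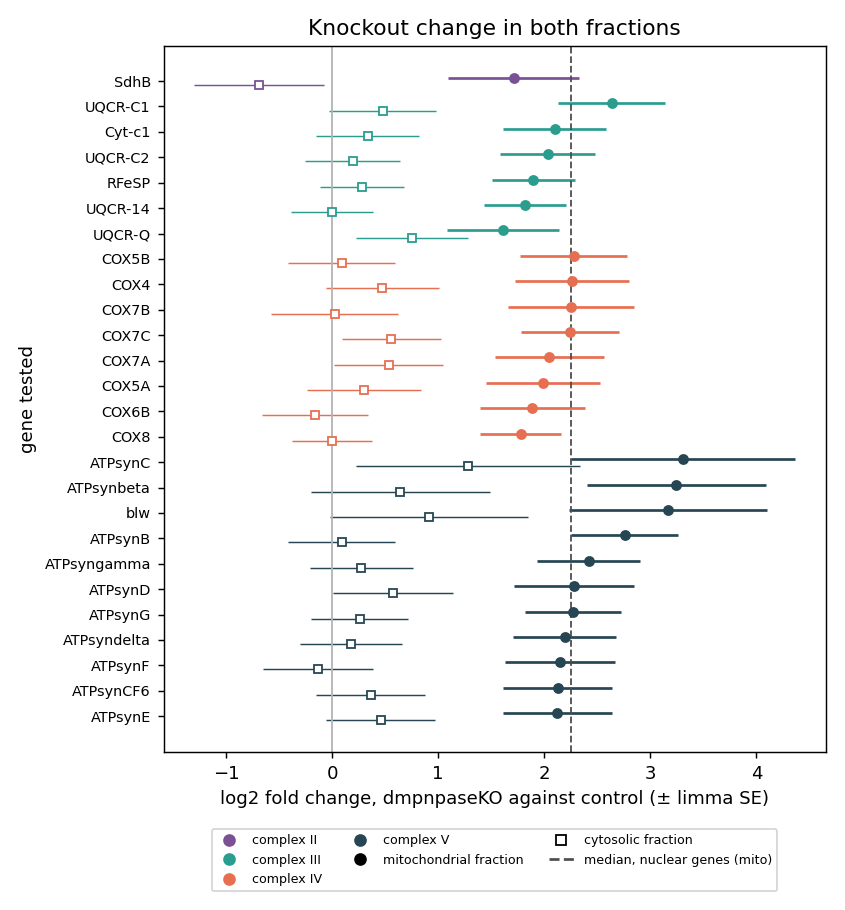
For the 26 members tested, points give the log2 fold change of dmpnpaseKO against control on the scale of log2(scaled TPM + 1) with the limma standard error, in the mitochondrial fraction (filled circles) and the cytosolic fraction (open squares). In mitochondria the points run from 1.61 to 3.31 around the median of 2.25 of the nuclear-encoded genes (dashed line), and in the cytosol none passed the threshold.

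Complex V gave most of the members' RNA in the mitochondrial fraction. It took 55.3% and 54.6% of the members' summed TPM in control mitochondria and 58.7% and 61.6% in knockout mitochondria. Its summed TPM was 12.3 and 5.71 in controls and 170 and 85.5 in the knockout, a ratio of the means of 14.2. Its 3 most abundant members, ATPsynC, blw and ATPsynbeta, took between 54.3% and 63.8% of complex V TPM in the 4 mitochondrial libraries.
ATPsynC (FBgn0039830, chromosome 3R from 31216145 to 31219630, minus strand of BDGP6) encodes the c subunit of the rotating ring in the membrane, and it had the highest mean level of all members. It stood at 2.79 and 1.72 TPM in control mitochondria and at 39.0 and 22.8 TPM in knockout mitochondria. Its log2 fold change was the largest of the 26, 3.31 (limma SE 1.06, adjusted p = 0.00998). That rank depends on the pseudocount, for with pseudocount 0.1 its change was 3.78 and that of ATPsynB 4.73. The ratio of the group means of ATPsynC was 13.7, at the median of the 26 (13.7). In the cytosol ATPsynC was at 0.117 and 0.320 TPM in controls, and the first knockout library held 10.1 TPM. It was thus higher than in controls in every knockout library in which it was not listed at 0. Its call in mitochondria was lost when any 1 of the 4 mitochondrial libraries was left out, with adjusted p between 0.0584 and 0.0897.
The catalytic head is built from alpha and beta subunits, encoded by blw and ATPsynbeta. For blw (FBgn0011211, 2R from 22799099 to 22802180, plus strand) the mitochondrial libraries held 1.83 and 1.37 TPM in controls, against 27.6 and 17.1 TPM in the knockout. For ATPsynbeta (FBgn0010217, chromosome 4 from 1031484 to 1034917, plus strand) they held 2.08 and 0.557 TPM in controls, against 29.5 and 12.2 TPM in the knockout. The log2 fold changes were 3.17 for blw (adjusted p = 0.00658, limma) and 3.24 for ATPsynbeta (0.00318). In both genotypes ATPsynbeta was the higher of the pair in the first library and blw in the second. Both lost the call when the second control library of mitochondria or the first knockout library of mitochondria was left out (adjusted p between 0.0564 and 0.0704), and blw also without the first control library (0.0519).
The central stalk turns inside the head and holds ATPsyngamma, ATPsyndelta and the epsilon subunit, encoded by sun. ATPsyngamma had 0.505 and 0.105 TPM in control mitochondria and 8.30 and 4.07 TPM in knockout mitochondria. ATPsyndelta had 0.383 and 0.104 TPM against 7.57 and 2.74 TPM. Both rose, by 2.42 and 2.19 on the log2 scale (adjusted p = 0.00104 and 0.0014, limma).
The peripheral stalk holds the head still. Its subunit b, ATPsynB (FBgn0019644, 3L from 9729999 to 9731224, plus strand), went from 0.399 and 0.0673 TPM in control mitochondria to 10.3 and 5.02 TPM in knockout mitochondria. The ratio of the group means, 32.9, was the highest among the 26, and the log2 fold change was 2.76 (SE 0.503, adjusted p = 0.000983, limma). ATPsynD had 0.891 and 0.593 TPM against 10.2 and 5.21 TPM. ATPsynCF6 had 1.03 TPM and a listed 0 in controls against 8.87 and 2.75 TPM, and its call was lost without the second control library (adjusted p = 0.0503, limma). ATPsynO, the OSCP subunit that ties the stalk to the head, had a mean just under the minimum and was not tested, with 0.458 and 0.148 TPM against 5.80 and 1.39 TPM. For each of the 4 stalk genes the knockout values lay above the control values, an order held by 91.4% of the 475 genes tested.
The small membrane subunits ATPsynE, ATPsynF and ATPsynG closed the range of complex V. ATPsynE (FBgn0038224, 3R from 14326947 to 14327735, plus strand) had the smallest log2 fold change of the complex, 2.12 (SE 0.512, adjusted p = 0.00213, limma), from 0.701 and 0.655 TPM in control mitochondria to 7.20 and 5.44 TPM in knockout mitochondria. Its replicates lay close together in each genotype. ATPsynF went from 0.497 and 0.136 TPM to 7.88 and 2.74 TPM, and ATPsynG from 0.716 and 0.158 TPM to 7.87 and 4.08 TPM.

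Complex IV, cytochrome c oxidase, took 25.8% and 21.5% of the members' TPM in control mitochondria and 21.3% and 20.5% in knockout mitochondria. Its summed TPM was 5.74 and 2.25 in controls and 61.7 and 28.5 in the knockout, a ratio of the means of 11.3. All 8 members without the L were tested and rose, with log2 fold changes between 1.78 and 2.28. These subunits surround a catalytic core that the mitochondrial genome encodes.
COX7B (FBgn0040793, 3L from 17425477 to 17426282, plus strand) had the highest mean level of the complex. Its TPM was 0.697 and 0.356 in control mitochondria and 10.1 and 3.67 in knockout mitochondria (log2 fold change 2.25, SE 0.597, adjusted p = 0.00348, limma). COX5B (FBgn0031830, 2L from 6557800 to 6559308, plus strand) had the largest change, 2.28 (SE 0.505, adjusted p = 0.00142), from 0.492 and 0.218 TPM to 6.40 and 4.72 TPM. The smallest change, 1.78 (SE 0.381, adjusted p = 0.00124), was that of COX8 (FBgn0263911, 3L from 21538859 to 21539447, minus strand). COX8 had 0.845 TPM and a listed 0 in control mitochondria and 4.93 and 2.51 TPM in knockout mitochondria, and it is listed at 0 in all 4 cytosolic libraries. The changes of COX5B and COX8 differ by less than the standard error of COX5B.
COX4 had 0.872 and 0.298 TPM in control mitochondria and 10.2 and 3.85 TPM in knockout mitochondria, and COX5A had 0.731 and 0.360 TPM against 10.8 and 2.14 TPM. COX5A had the widest gap between knockout replicates of the 8. COX7A, with 0.631 and 0.601 TPM against 7.09 and 4.48 TPM, had the closest control replicates of the complex. COX6B had 1.04 and 0.260 TPM against 6.17 and 3.72 TPM, and its ratio of group means, 7.58, was the lowest among the 26 tested. COX7C had 0.376 TPM and a listed 0 against 5.91 and 3.43 TPM, with a ratio of 24.9. The calls of COX6B without the second control library and of COX7B without the first knockout library of mitochondria were lost (adjusted p = 0.056 and 0.0604, limma).

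Complex III took 14.4% and 20.5% of the members' TPM in control mitochondria and 16.2% and 14.5% in knockout mitochondria, which overlaps. Its summed TPM was 3.20 and 2.15 in controls and 46.9 and 20.1 in the knockout, a ratio of the means of 12.5. UQCR-C1 (FBgn0038271, 3R from 14890231 to 14892387, plus strand), a core protein on the matrix side, had both the highest mean level and the largest change of the complex. It went from 0.537 and 0.0776 TPM to 9.12 and 5.21 TPM, a log2 fold change of 2.63 (SE 0.504, adjusted p = 0.000983, limma). The other core protein, UQCR-C2, had 0.301 and 0.133 TPM against 5.96 and 2.60 TPM.
The carriers of electrons in the complex are Cyt-c1, with its haem, and RFeSP, the Rieske iron-sulfur protein. Cyt-c1 had 0.314 and 0.165 TPM in control mitochondria and 6.26 and 2.92 TPM in knockout mitochondria. RFeSP had 0.181 and 0.183 TPM in controls, against 5.34 and 2.16 TPM in the knockout. They rose by 2.10 and 1.90 on the log2 scale (adjusted p = 0.00184 and 0.00111, limma).
Among the small subunits, UQCR-14 (FBgn0030733, X from 16286288 to 16286988, plus strand) rose by 1.82 (adjusted p = 0.0012, limma), from 0.452 and 0.431 TPM to 5.77 and 2.86 TPM. All 523 bp of its exons lie within exons of CG32576 on the opposite strand, so its reads are uncertain, and CG32576 had at most 0.306 TPM in any library. Of the 26 members tested, 9 share exonic bases with a gene on the opposite strand. UQCR-Q (FBgn0036728, 3L from 17474761 to 17476124, plus strand) had the smallest change of the 26, 1.61 (SE 0.527, adjusted p = 0.0114), from 0.358 and 0.365 TPM to 5.53 and 1.72 TPM. Its call was lost without either control library or the first knockout library of mitochondria, with adjusted p between 0.0513 and 0.0993. UQCR-11 and UQCR-6.4 were below the minimum, with 0.808 and 0.527 TPM against 4.02 and 1.57 TPM and 0.199 and 0.265 TPM against 4.80 and 1.01 TPM. UQCR-11 had the lowest ratio of group means among the 32 members without the L, 4.19.

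Complex II, succinate dehydrogenase, was the least abundant in the mitochondrial fraction. It took 4.56% and 3.44% of the members' TPM in control mitochondria and 3.84% and 3.38% in knockout mitochondria. Its summed TPM was 1.02 and 0.360 in controls and 11.1 and 4.69 in the knockout. SdhB (FBgn0014028, 2R from 6807626 to 6809172, plus strand), the iron-sulfur subunit, was the only member of the complex that was tested. It had 0.341 and 0.114 TPM in control mitochondria and 4.08 and 2.18 TPM in knockout mitochondria, a log2 fold change of 1.71 (SE 0.617, adjusted p = 0.0189, limma). This call was lost when any 1 of the 4 mitochondrial libraries was left out, with adjusted p between 0.0751 and 0.149.
SdhB also had 1.84 TPM in the second library of the control cytosol, against 0 in the first, the highest value of any member in the control cytosol. The 3′ ends of SdhB and CG15237, a gene on the opposite strand (2R from 6809044 to 6809766), share 129 bp. CG15237 had 0.473 and 0.837 TPM in the control cytosol, at most 0.103 TPM in the mitochondrial libraries and a listed 0 in the knockout cytosol. Whether the authors' quantification used the strand is not given in the sources used here, so reads of the shared stretch may stand under either gene. What part this has in the SdhB value was not tested.
SdhA, the flavoprotein, had 0.246 and 0.141 TPM in control mitochondria and 3.06 and 1.45 TPM in knockout mitochondria. The membrane anchors were lower still, SdhC with 0.185 and 0.104 TPM against 2.71 and 0.512 TPM, and SdhD with 0.191 TPM and a listed 0 against 1.26 and 0.555 TPM. All 3 had knockout values above the control values, an order held by 91.4% of the 475 genes tested.

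**Figure D3:**
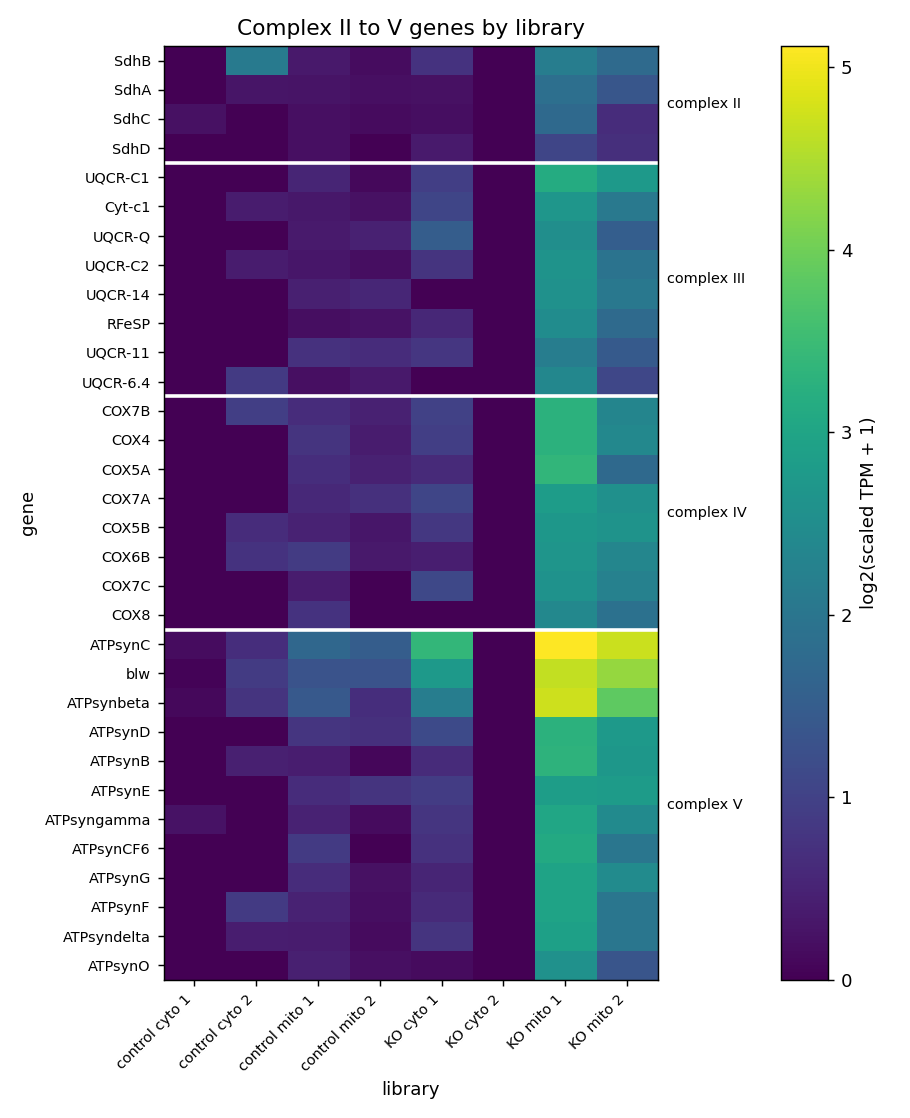
Colour gives log2(scaled TPM + 1) of the 32 members without the L (rows, by complex and in order of mean TPM) in each of the 8 libraries (columns; KO, dmpnpaseKO; cyto, cytosol; mito, mitochondria). Both knockout mitochondria columns are above both control mitochondria columns in every row, an order held by 91.4% of the 475 genes tested. ATPsynC, blw and ATPsynbeta stand out, and the second knockout cytosol column is 0 throughout.

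With no minimum on the mean, 45 members could be fitted, the other 5 being at 0 in every library. Of the 45, 28 were called higher in knockout mitochondria, where 47.2% of the 11606 genes fitted were. All 28 are members without the L. SdhA (log2 fold change 1.39, adjusted p = 0.00502, limma), SdhC (1.02, 0.0498), SdhD (0.77, 0.0144), UQCR-11 (1.12, 0.0361), UQCR-6.4 (1.44, 0.0456) and ATPsynO (1.63, 0.0166) passed in this fit. SdhB, UQCR-Q, ATPsynC and blw did not pass in it, with adjusted p between 0.0515 and 0.0876.
The 18 like paralogs were near 0 throughout. Their summed TPM was 0.191 and 0.257 in control mitochondria, 0.362 and 0 in knockout mitochondria, and 0 in all 4 cytosolic libraries, so the genotypes overlap. COX4L, with 0.159 TPM, and ATPsynCF6L, with 0.0981 TPM, made up the sum of the second control library. The other paralogs above 0 anywhere were SdhAL, SdhBL, SdhCL, UQCR-11L, UQCR-14L, COX5BL, COX6AL, COX6CL, COX7CL, ATPsynbetaL and ATPsynepsilonL, the highest of them UQCR-11L with 0.0982 TPM in the first library of knockout mitochondria. UQCR-6.4L, COX6AL2, COX7AL, COX7AL2 and ATPsynGL were listed at 0 throughout. Many such paralogs are known for expression in the testis in Drosophila. The 6 testis genes examined (the Mst84D genes, Mst87F and dj) summed to 0.178 and 0.114 TPM in control mitochondria and to 0.0349 and 0 TPM in knockout mitochondria.

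The order of the members by level was similar in the replicates of knockout mitochondria, with a Spearman correlation of 0.787 across the 32 members without the L, and less so in control mitochondria (0.456). Between the first libraries of control and knockout mitochondria it was 0.695, and between the second libraries 0.393. These describe genes within pairs of libraries that share most of their RNA, and genes are not replicates. Across the 26 tested, the log2 fold change had a Spearman correlation of 0.410 with the exonic length, which ran from 417 to 3817 bp. Every one of the 26 was higher in the first than in the second library of knockout mitochondria. Nuclear-encoded genes together also took more of the first library, 1.18%, than of the second, 0.586%.

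In the cytosol the members' level differed widely between libraries. Above 0 TPM were 5 members in the first and 14 in the second library of the control cytosol, and 29 and 0 in the libraries of the knockout cytosol. Their summed TPM was 0.597 and 5.96 in controls and 40.3 and 0 in the knockout. For this sum the genotypes overlap only through the listed 0, and without that library the remaining knockout value lies above both controls. Complex II alone differs, with 0.179 and 1.96 TPM in controls and 1.36 TPM in the first knockout library. It took 30.0% and 32.8% of the members' TPM in the control cytosol. Complex V gave 26.4 of the 40.3 TPM in the first knockout library, with 10.1 TPM from ATPsynC, 6.23 TPM from blw and 3.73 TPM from ATPsynbeta. UQCR-Q followed among the rest of the complexes, with 1.99 TPM there and a listed 0 in the other 3 cytosolic libraries.
limma called 0 of the 26 in the cytosol, while 0% of all genes tested were called in either direction. An unadjusted p under 0.05 was reached by 0 of the 26 and by 47 of the 475 genes tested. The median log2 fold change was 0.29, as over the nuclear-encoded genes (0.29). Without the second knockout library it was 0.64 and without the first it was −0.06, with 0 members called either way, so the sign of the median rests on which library is kept. In the first knockout library alone, 26 of the 32 members without the L, and 22 of the 26 tested, were higher than in both controls, an order held by 77.7% of the 475 genes. It rests on 1 knockout library.

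Between the fractions, the control libraries showed no called difference for the members. The median of mitochondrial against cytosolic fraction was 0.35 on the log2 scale in controls, with 0 of 26 called and 0 at an unadjusted p under 0.05 (limma, smallest adjusted p = 0.743). Over all 475 genes tested, 0.842% were called higher and 0.211% lower in mitochondria, and 46 had an unadjusted p under 0.05. In the knockout, all 26 were called higher in mitochondria, with a median of 2.27, where 81.1% of all genes tested were called higher. All but ATPsynC, blw and ATPsynbeta passed the minimum through knockout mitochondria, so this count too is a description. ATPsynB stood at 0.597 and 0 TPM in the knockout cytosol and at 10.3 and 5.02 TPM in knockout mitochondria (2.69, SE 0.503, adjusted p = 0.000524, limma). Without the second cytosolic library of the knockout 24 of the 26 were called, SdhB and UQCR-Q being the exceptions (adjusted p = 0.184 and 0.308). With the nuclear-encoded TPM of each library set equal, 0 were called, and with median-of-ratios scaling 5.

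The knockout change was larger in mitochondria than in the cytosol for 13 of the 26 members by the interaction term of limma, where 30.5% of all genes tested were called higher and 0.632% lower. The median of this difference was 1.92 on the log2 scale, beside 2.01 over the nuclear-encoded genes. All 13 passed the minimum through knockout mitochondria, so their count is a description. ATPsynB had the smallest adjusted p of the members, with a difference of 2.67 (SE 0.712, adjusted p = 0.033), followed by UQCR-14, with 1.82 (SE 0.543, adjusted p = 0.0373). UQCR-14 is listed at 0 in all 4 cytosolic libraries, so its difference equals its change in mitochondria. The call depends on the library in which the members are listed at 0, for 2 of 26 members were called without it, and the median was then 1.49. It also fell to 0 when either library of control mitochondria or the second library of the control cytosol was left out, to 1 without the first library of the control cytosol and to 5 without the first library of knockout mitochondria. Without the first library of the knockout cytosol it was 25.

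Subunit mRNAs of both genomes can be set against each other within a library, which needs no scaling. The mitochondrially encoded TPM (CoI, CoII and CoIII) was 750 and 4060 times the nuclear-encoded TPM of complex IV in control mitochondria and 430 and 3658 times in knockout mitochondria. For complex III (Cyt-b) the ratios were 245 and 707 against 110 and 866. For complex V (ATPase6 only) they were 44.1 and 96.6 against 28.3 and 69.2. The genotypes overlap in all 3 complexes, and the second replicate was the higher in both genotypes. In the cytosol the complex V ratio was 16.3 and 16.5 in controls and 22.5 in the first knockout library, and complex IV went from 283 in the second control library to 1844 in the first knockout library. The other cytosolic ratios of complex IV have nuclear-encoded subunits at 0.

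**Figure D4:**
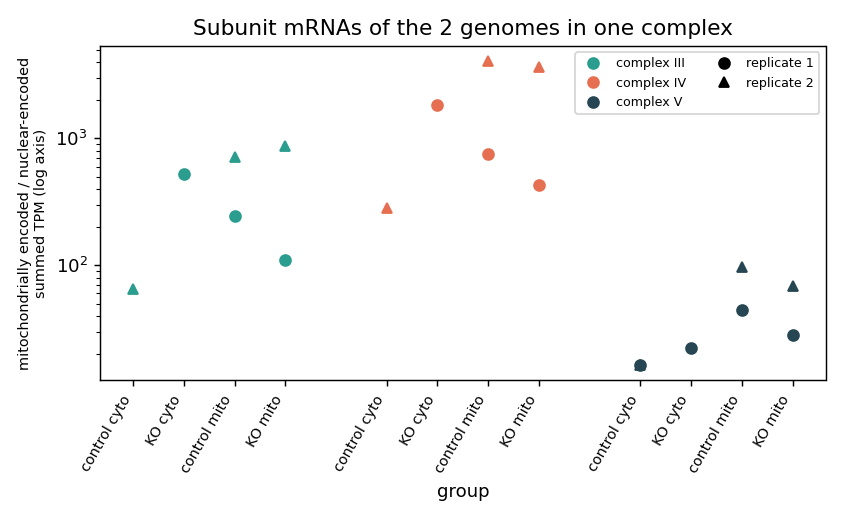
Points give, per library, the summed TPM of the mitochondrially encoded subunits divided by that of the nuclear-encoded subunits of the same complex, on a log axis (KO, dmpnpaseKO; cyto, cytosol; mito, mitochondria; circles, replicate 1; triangles, replicate 2). In mitochondria the replicates of a genotype lie farther apart than the genotypes do, as in complex IV, with 750 and 4060 in controls and 430 and 3658 in the knockout, and libraries with nuclear-encoded subunits at 0 have no point.

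Of 5 subunit or cytochrome genes that the rule does not name, 4 were tested and called higher in knockout mitochondria, where 78.7% of all genes tested were. All 4 stayed below 1 TPM in every other group, so they too passed the minimum through knockout mitochondria, and their count is a description. They are levy, a COX6A subunit (2.58, adjusted p = 0.000983, limma), sun (2.24, 0.00111), ox, a small complex III subunit (1.78, 0.00104), and cype, a COX6C subunit (1.67, 0.00737). Cyt-c-d, a cytochrome c of the male germ line, was not tested, and its genotypes overlap, with at most 0.128 TPM in any library. The 7 assembly factors examined, among them Surf1, Scox and Cox10, were all too low to be tested and summed to 0.127 and 0.0307 TPM in control mitochondria and to 3.68 and 1.25 TPM in knockout mitochondria. Among the 40 complex I genes only 1 reached the minimum, and it did not pass (adjusted p = 0.112, limma). Their summed TPM was 6.27 and 2.90 in control mitochondria and 88.5 and 37.5 in knockout mitochondria. The ratio of the means was 13.7, beside 13.1 for the members. Of 88 cytosolic ribosomal protein genes 75 were tested and 75 rose, with a median of 3.74. Of 70 mitochondrial ribosomal protein genes 0 reached the minimum, and the ratio of the means of their summed TPM was 16.2.

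Some markers of tissues differed with the genotype in the same libraries. The 6 fat body genes (Lsp1alpha, Lsp1beta, Lsp1gamma, Lsp2, Fbp1 and Fbp2), for proteins of the late larval fat body, took 3.46% and 3.51% of the nuclear-encoded TPM in control mitochondria and 0.00149% and 0.00101% in knockout mitochondria. Muscle genes, 7 of them, took 1.70% and 1.73% against 1.27% and 1.33%. The 6 gut protease genes took 2.58% and 1.01% against 2.25% and 1.65%, which overlap. The 3 neuronal genes took at most 0.0234% in any library. Fat body and muscle genes were thus lower as a share where the members were higher. In the test used for the members, 4 of 4 fat body genes tested were called lower (median −2.66), where 2.53% of all genes tested were. Called higher were 4 of 6 muscle genes (median 2.37) and 5 of 6 gut genes (2.58), beside 78.7% of all genes tested. In the cytosol the fat body genes took 0.714% and 4.67% in controls and 0.00582% in the first knockout library. In the second knockout library, where all members are at 0, they took 1.68% and muscle genes 3.04%, each from a single gene, Lsp1gamma and Act57B. Their part in the members' values was not tested.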

How the data were processed

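J2 immunoprecipitates of cytosolic and mitochondrial RNA (5 μg RNA, 5 μg J2, 100 ng into a directional library, 42 bp paired ends) gave 8 libraries in 4 groups, mapped to groups by their titles. The authors ran salmon 0.11.3 against the BDGP6 cDNA set (release 94) and deposited TPM per gene. How transcripts were joined to genes is not given in the sources used here. Value columns without a library numbered 0. Identifiers were matched to symbols for 13746 of 13970 genes, and positions are those of Ensembl release 115 on the same assembly.

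Each library was divided by its mean over the 8 rRNA pseudogenes the methods name, relative to the average library. The 475 genes whose mean over libraries reached 1 TPM were fitted as log2(scaled TPM + 1) with limma 3.58.1 in R 4.3.3 (eBayes with trend, 4 group means over 8 libraries), tested on simulated data, with an adjusted p threshold of 0.05. Sums and shares have no test. The members, gene lists and tests were chosen with earlier results of these data known. Named are all tested members, with full statistics for the most abundant and the extreme members of each complex, and members under the minimum where above 0 in 4 libraries or ending in L. Alternatives were 4 other scalings, pseudocounts of 0.1 and 10, no minimum or 5 TPM, no trend, only the groups compared, a replicate block, and each library left out.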

Additional observations from a re-analysis of the deposited data

Results flagged for a closer look

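The knockout change on the log2 scale was larger in the mitochondrial than in the cytosolic fraction for 13 members by the interaction term of limma, where 30.5% of all genes tested were called higher. Without the second library of the knockout cytosol 2 members were called, and with no scaling 0. The difference between the fractions was 2.67 for ATPsynB, 2.14 for ATPsyngamma, 2.28 for ATPsynF, 2.01 for ATPsynG and 2.01 for ATPsyndelta in complex V. In complex IV it was 2.19 for COX5B, 2.05 for COX6B and 1.78 for COX8. In complex III it was 2.16 for UQCR-C1, 1.84 for UQCR-C2, 1.82 for UQCR-14 and 1.61 for RFeSP, and in complex II 2.40 for SdhB. The adjusted p of the 13 ran from 0.033 to 0.0487 (limma), and all 13 are listed at 0 in the second library of the knockout cytosol. They all passed the minimum through knockout mitochondria, so their count is a description.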

How the results depend on the processing

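Every 1 of the 26 members kept the sign of its change in mitochondria in each alternative run that fitted it. With equal nuclear-encoded sums the smallest of these changes was 0.012. All 26 stayed past the threshold with no scaling, the geometric mean, pseudocount 10, only the groups compared and the replicate block. Of the 26, 25 stayed past it without the trend and 22 with no minimum. In mitochondria the count called higher (26) became 0 with median-of-ratios scaling, 0 with equal nuclear-encoded sums, 15 with pseudocount 0.1 and 3 with a minimum of 5 TPM, which leaves 3 members. It ran from 19 to 24 with single libraries left out. The median (2.17) became 1.07, 0.56, 3.73 and 3.24 in the same order, 0.56 with pseudocount 10 and 1.82 with no minimum, and ran from 1.80 to 2.54 with libraries left out. In the cytosol the median (0.29) became 0.93 with pseudocount 0.1 and 0.91 at 5 TPM, and ran from −0.06 to 0.64 with libraries left out.

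Between fractions in controls the median (0.35) became 0.81 with median-of-ratios, 0.78 with equal sums, 1.52 and 0.042 with pseudocounts 0.1 and 10, 0.087 with no minimum and 0.83 at 5 TPM, and ran from 0.075 to 0.48 with libraries left out. Between fractions in the knockout the count (26) became 5 with median-of-ratios, 0 with equal sums and 3 at 5 TPM, and ran from 21 to 26 with libraries left out. Its median (2.27) became 1.64, 0.95 and 3.21 in that order, and 4.27 and 0.56 with pseudocounts 0.1 and 10, and ran from 1.86 to 2.62 with libraries left out. The interaction count (13) became 0 with no scaling, median-of-ratios, equal sums, pseudocount 0.1, 5 TPM and no trend, 8 with the geometric mean and 23 with pseudocount 10, and ran from 0 to 25 with libraries left out. Its median (1.92) became 0.85 with median-of-ratios, 0.10 with equal sums, 2.88 and 0.53 with pseudocounts 0.1 and 10, and ran from 1.49 to 2.28 with libraries left out. The cause of these moves was not tested.

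The replicate numbers are shared across groups, but the labels do not say what they share. Same-numbered libraries deviated together in mitochondria (correlation 0.68 across 475 genes) and not in the cytosol (−0.0126). The control cytosol had correlations of 0.35 with control and 0.41 with knockout mitochondria, and the knockout cytosol of 0.0386 and 0.018. With the replicate block, 26 members were called higher in mitochondria, 0 in the cytosol, 0 and 26 between fractions in controls and the knockout, and 18 in the interaction. Depth is unknown, so low values carry a counting error that cannot be given.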
